A study of Arabidopsis thaliana with 60 samples.

Results

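Leaves of wild-type Arabidopsis thaliana (Col) whose sample titles name heat stress (HS) for 8 min were compared with untreated leaves at 0 min (CT). The comparison used 6 of the 60 libraries of the data set, 3 in each group. Of 32833 genes, the 18220 whose mean over these 6 libraries reached 10 normalized counts were tested. Just below this minimum lay MEE25, AT1G33950 and AT3G07600, with means of 9.97, 9.97 and 9.99, and just above it AT1G09287, AT1G04477 and AT4G08210, with 10.0, 10.02 and 10.03. A normalized count is the number of reads of a gene divided by 1 size factor per library. All plants were bolting and had grown at 23 °C, with 14 h of light at 50 µmol m-2 s-1 and 10 h of dark. Per the labels' protocol, heat came from a block 2 cm below the leaf, and high light (HL) from a lamp at 1700 µmol m-2 s-1. The temperature reached by the leaf is not given in the labels. Leaves titled HL for 8 min, and untreated stems of control plants at 0 min and of plants titled HS at 8 min, were used for direct comparison, with 3 libraries in each group.

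The labels of these leaves disagree. The libraries titled HS for 8 min carry a treatment tag that names high light, and those titled HL carry a tag that names heat. The groups were taken from the titles and are called titled HS and titled HL. No sample was reassigned from its values, and which label is right cannot be told from the labels alone. No untreated leaf was sampled at 8 min, so that stress, handling and the passing of 8 min cannot be told apart. Whether replicate libraries came from separate plants is not stated in the labels, and the p-values below measure only the spread between these libraries. A leaf holds many cell types, and more transcripts per cell cannot be told apart from more cells of a type.

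Heat unfolds proteins, and plant cells answer through heat shock factors, transcription factors that bind heat shock elements and switch on chaperone genes. Heat, intense light, touch and wounding also set off calcium and reactive oxygen signals. These are known to induce an early set of regulators within minutes, among them ERF, ZAT and WRKY transcription factors and genes of jasmonate synthesis. Intense light is in addition known to induce photoprotective genes such as the ELIP genes, and HSFA2 and ZAT genes as well as several chaperones respond to both stresses.

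The 6 libraries held 12174730 to 12998149 counted reads. In limma, with Benjamini-Hochberg adjustment over all 18220 genes, 4419 genes differed between titled HS and control (24.3%), 2733 of them higher (15%) and 1686 lower (9.25%). Most changes were small. Only 663 genes (3.64%) differed by at least 2-fold, of which 593 were higher (3.25%) and 70 lower (0.384%). Of the 593, 86 had control means under 10. Of the 593, 206 rose at least 4-fold, 82 at least 8-fold and 35 at least 16-fold. Of the 70, 4 fell at least 4-fold. Fold changes are on the scale log2(normalized count + 1), which understates the change of genes with few reads. The median log2 change over all genes tested was 0.01. The 3 libraries of one group did not overlap the 3 of the other for 7403 genes (40.6%). Counts of list members against control, given below, are to be read beside the shares of all genes tested, 15% higher and 9.25% lower.

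**Figure D1:**
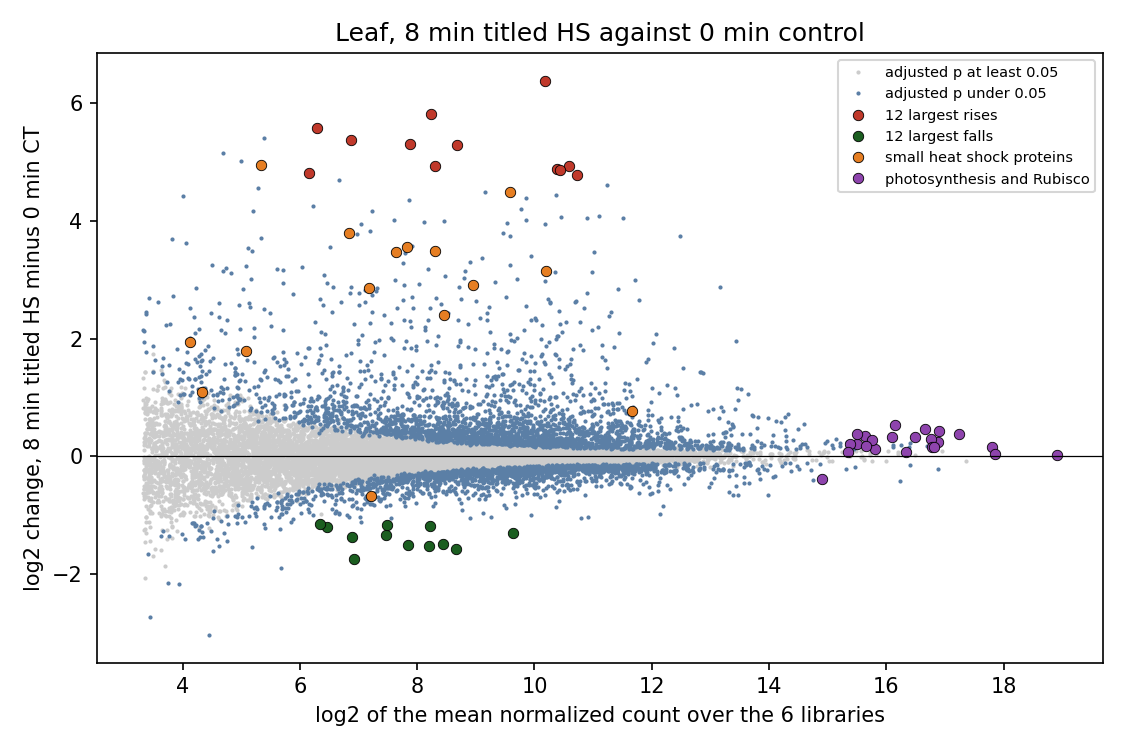
Log2 change between titled HS and control leaves (vertical axis) against the log2 mean normalized count over the 6 libraries (horizontal axis), 1 point per gene tested. Blue points passed an adjusted p of 0.05; the 12 largest rises among genes averaging at least 100 in the higher group reach log2 changes of 4.78 to 6.38, while the 12 largest falls, named by the same rule, lie between -1.74 and -1.15.

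Genes are ranked below among those whose 3 libraries of each group did not overlap and whose higher group averaged at least 100 normalized counts. The largest rise, here and among all called genes, was that of ORA47 (AT1G74930), an AP2/ERF factor known as an activator of jasmonate synthesis genes. It stood at 23.1, 21.9 and 37.0 normalized counts in the 3 control libraries and at 2331, 2307 and 2254 in the libraries titled HS. The groups were far apart, and the log2 change was 6.38 (SE 0.109; limma, Benjamini-Hochberg adjusted p 8.25e-30). The ethylene response factor ERF6 (AT4G17490) followed, from 14.2, 8.42 and 7.05 to 539.6, 669 and 576, a log2 change of 5.82 (SE 0.162; limma, Benjamini-Hochberg adjusted p 4.58e-24). Its relative ERF5 (AT5G47230) went from 17.8, 16.8 and 24.7 to 789, 795 and 816, a log2 change of 5.29 (SE 0.116; limma, Benjamini-Hochberg adjusted p 5.68e-27). ERF11 (AT1G28370), a repressor of the same family, was uneven in control, at 39.1, 23.6 and 7.05. It reached 553, 657 and 611 in the libraries titled HS, a log2 change of 4.93. AT1G33760, annotated in the same Integrase-type DNA-binding superfamily as ORA47, had only 1, 1 and 2 reads in the control libraries and 68, 92 and 89 in those titled HS. Its log2 change of 5.57 therefore depends on the pseudocount. With a control mean under 10, it could pass the filter only by being higher in titled HS.

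ORA47, ERF6, ERF5 and ERF11 belong to a list of 18 early ERF and DREB1 regulators, of which 15 passed the filter on low values. The filter used the mean of all 6 libraries, and 7 of the 15 (ERF6, ERF13, RRTF1, CEJ1, DDF1, CBF1 and CBF3) had control means under 10. They could pass only by being higher in titled HS, so that their direction was fixed by the filter. The other 8 all rose by at least 2-fold, where 3.25% of all genes tested did, with a median log2 change of 4.40. The 3 listed genes below the filter were ERF105, listed at 0 in all 6 libraries, and RAP2.6 and DDF2, at 0 in control and at mean normalized counts of 12.5 and 4.37 in the group titled HS. All 50-base windows of ERF105 are shared with another locus, which leaves its level uncertain. ERF104 (AT5G61600), an ERF known as a substrate of the kinase MPK6, rose from 103, 111 and 132 to 2608, 2536 and 2433, a log2 change of 4.45. The DREB1 factor CBF2 (AT4G25470), known for cold acclimation, rose from 24.9, 18.5 and 19.4 to 419.7, 485 and 426, a log2 change of 4.35. CBF1 (AT4G25490) had 0, 1 and 1 reads in control and 52, 44 and 37 under the HS title. CBF3 (AT4G25480) changed less on this scale, from a mean of 4.05 ± 1.98 to 33.4 ± 0.997 (SD, n = 3), a log2 change of 2.86.

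Zinc finger, WRKY, calmodulin-like and MAP kinase genes rose with them. Of 8 tested ZAT and AZF zinc finger genes, 7 rose, all of them by at least 2-fold, with a list median of 1.82. STZ (AT1G27730), also called ZAT10, a repressor that responds to salt, light and other stresses, stood at 174, 188 and 204 normalized counts in control and at 4571, 4837 and 4428 in the libraries titled HS. No library of one group came near the other, and the log2 change was 4.60 (SE 0.0561; limma, Benjamini-Hochberg adjusted p 1.35e-33). ZAT6 (AT5G04340) rose by a log2 change of 4.02 and RHL41 (AT5G59820), also called ZAT12, by 2.68. AZF3 was the tested member that did not pass, at 23.2 ± 1.97 in control and 29.0 ± 5.78 titled HS (SD, n = 3; limma, Benjamini-Hochberg adjusted p 0.558).

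Of 13 stress WRKY genes, 10 rose, 7 of them by at least 2-fold, where 15% and 3.25% of all genes tested did. The largest of these was WRKY40 (AT1G80840), known in defence and abscisic acid signalling, at 115, 95.9 and 81.1 in control and 2846, 2992 and 3142 titled HS, a log2 change of 4.94 (SE 0.0797; limma, Benjamini-Hochberg adjusted p 2.23e-30). WRKY33 (AT2G38470), a regulator of defence against necrotrophic fungi, went from 760.5, 719 and 763 to 5991, 6019 and 5969, a log2 change of 3.00. WRKY6, WRKY26 and WRKY60 did not pass the threshold, with log2 changes of -0.12, 0.04 and 0.09. The WRKY response was thus spread widely within the list, from no called change to over 16-fold.

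Among 13 tested calmodulin-like and touch genes, 10 rose and none fell. TCH4 (AT5G57560), a touch-induced xyloglucan endotransglucosylase that remodels cell walls, stood at 72.8, 94.2 and 95.2 in control and 2561, 2653 and 2583 titled HS. The 3 libraries of the latter group lay close together, and the log2 change was 4.89 (SE 0.0751; limma, Benjamini-Hochberg adjusted p 6.87e-31). The calmodulin-like genes CML38 (AT1G76650) and CML23 (AT1G66400) rose by log2 changes of 3.78 and 3.28, and TCH2 and TCH3 by 1.88 and 1.65. All 5 genes of the MAP kinase list rose. The kinase gene MPK3 (AT3G45640) went from 1821, 1809 and 2078 to 5749.8, 5827 and 5676, a log2 change of 1.60, and MKK9 (AT1G73500), which acts upstream of MPK3 and MPK6, rose by 2.32. MPK6 itself rose by only 0.22 (limma, Benjamini-Hochberg adjusted p 0.0124) and lost its call without control replicate 2.

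The other genes among the 12 largest rises were not on a list. RTFL12 (AT4G13395), of a family of small peptides, rose from 16.0, 8.42 and 8.81 to 467, 427 and 487, a log2 change of 5.31. DIC2 (AT4G24570), a mitochondrial dicarboxylate carrier, rose from 78.2, 82.5 and 116 to 2469, 2859 and 2733, a log2 change of 4.87. AT4G29780, annotated as a nuclease, rose from 110.2, 129.6 and 115 to 3119, 3465 and 3209, a log2 change of 4.78. AT4G27654, an uncharacterized protein, and AT1G50745, annotated as a plant mobile domain protein, rose by 5.37 and 4.81 from control means of 5.21 and 4.70 normalized counts. With control means under 10, both could pass the filter only by being higher in titled HS, so that their direction was fixed by the filter.

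**Figure D2:**
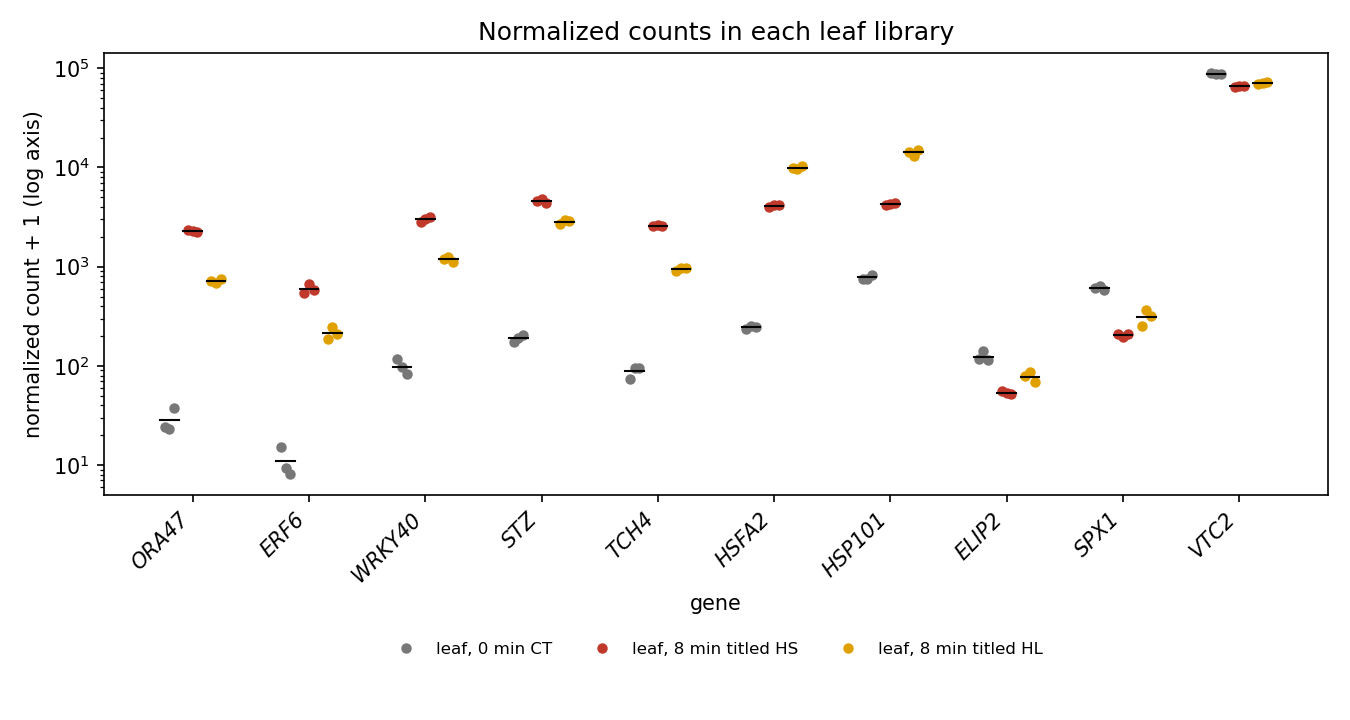
Normalized counts plus 1 (log axis) of 10 genes in each of 3 leaf libraries per group, with the mean of the group as a bar. ORA47, ERF6, WRKY40, STZ and TCH4 were higher in titled HS than in titled HL, HSFA2 and HSP101 were lower in titled HS than in titled HL, and ELIP2, SPX1 and VTC2 were below control in titled HS.

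Heat shock factor genes moved unevenly. Of 15 class A genes, 11 were tested and 4 rose, 3 of them by at least 2-fold; none fell; the smallest rise was that of HSFA8, at 0.53. HSFA2 (AT2G26150), the factor that amplifies and prolongs the heat response, stood at 236, 249 and 247 normalized counts in control and at 3987, 4211 and 4181 titled HS, a log2 change of 4.07 (SE 0.0422; limma, Benjamini-Hochberg adjusted p 2.86e-35). HSFA7A (AT3G51910) rose from 65.7, 87.5 and 47.6 to 253, 247 and 279.6, a log2 change of 1.98, and HSFA4A (AT4G18880) from 416, 444 and 425 to 1289, 1468 and 1288, a log2 change of 1.65. The 4 HSFA1 genes, master regulators held in an inactive state before heat, did not pass the threshold, with log2 changes between -0.28 and 0.18. Of 4 tested class B and C genes 3 rose, HSFB2A, HSFB2B and HSFB1, by log2 changes of 1.60, 1.51 and 0.86. Windows of 50 bases shared with another gene make up 18.9% of HSFB2B.

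The start regions of HSFA2 and STZ, of the genes with the largest rises, ORA47 and ERF6, and of the gene with the largest fall named below, AT5G20790, are shown because they are the regulators and extremes of the comparison. Each runs from 250 bases before to 50 bases after the annotated gene start in RefSeq's TAIR10.1, read on the strand of the gene. Capitals mark matches, on either strand, to a heat shock element (the units GAA, TTC and GAA, each followed by 2 further bases before the next), a rapid stress response element (CGCGTT), a G-box (CACGTG), a W-box (TTGACC) or a phosphate starvation element (GNATATNC).
HSFA2, chr2:11135374-11135673, plus strand: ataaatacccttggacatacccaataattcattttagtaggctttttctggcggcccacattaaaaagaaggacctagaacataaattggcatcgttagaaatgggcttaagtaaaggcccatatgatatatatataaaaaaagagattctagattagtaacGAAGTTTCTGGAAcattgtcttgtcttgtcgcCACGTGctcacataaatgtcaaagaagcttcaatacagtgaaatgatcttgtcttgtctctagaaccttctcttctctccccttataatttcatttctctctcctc
STZ, chr1:9649274-9649573, minus strand: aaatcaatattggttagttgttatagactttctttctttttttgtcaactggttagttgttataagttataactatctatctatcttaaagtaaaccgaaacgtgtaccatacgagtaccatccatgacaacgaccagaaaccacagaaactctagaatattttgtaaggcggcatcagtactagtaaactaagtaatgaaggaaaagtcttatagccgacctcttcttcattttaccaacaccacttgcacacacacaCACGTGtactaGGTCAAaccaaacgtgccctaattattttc
ORA47, chr1:28143601-28143900, plus strand: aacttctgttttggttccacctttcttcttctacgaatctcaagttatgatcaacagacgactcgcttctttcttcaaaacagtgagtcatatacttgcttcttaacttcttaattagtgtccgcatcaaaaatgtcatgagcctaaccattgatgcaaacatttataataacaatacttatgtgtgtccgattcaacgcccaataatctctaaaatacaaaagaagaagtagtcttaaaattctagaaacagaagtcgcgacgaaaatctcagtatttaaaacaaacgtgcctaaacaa
ERF6, chr4:9754112-9754411, minus strand: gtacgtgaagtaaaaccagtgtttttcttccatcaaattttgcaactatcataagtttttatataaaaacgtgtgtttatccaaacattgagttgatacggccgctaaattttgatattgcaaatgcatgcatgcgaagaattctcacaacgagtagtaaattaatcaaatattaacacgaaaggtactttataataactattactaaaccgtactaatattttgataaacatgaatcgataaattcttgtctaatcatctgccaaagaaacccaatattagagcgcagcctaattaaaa
AT5G20790, chr5:7040870-7041169, minus strand: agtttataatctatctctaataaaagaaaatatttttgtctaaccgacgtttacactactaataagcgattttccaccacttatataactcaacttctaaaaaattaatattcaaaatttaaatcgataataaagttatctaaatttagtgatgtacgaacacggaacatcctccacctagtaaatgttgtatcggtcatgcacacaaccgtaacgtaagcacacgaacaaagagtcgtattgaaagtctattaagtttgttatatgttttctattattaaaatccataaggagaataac
In HSFA2, GAAGTTTCTGGAA began 88 bases before the gene start and a G-box 56 bases before it. In STZ both matches lay past the gene start, a G-box from base 10 and a W-box, read on the other strand as GGTCAA, from base 21. The regions of ORA47, ERF6 and AT5G20790 held none of these letters, which says nothing about factors bound elsewhere or at variant sites. Among genes tested, 0.568% had the heat shock element in this window, against 2.20% (13 of 592 with a region) of those that rose at least 2-fold. The CGCGTT element was in 3.84% of genes tested and in 11.5% of those risers (68 of 592). The G-box shares were 8.99% and 12.3%, those of the W-box 14.3% and 18.6%, and those of GNATATNC 6.21% and 7.94%. Of the 70 genes that fell at least 2-fold, 12 held the W-box (17.1%), 8 GNATATNC (11.4%) and 7 the G-box (10%). CGCGTT was in 2 of them (2.86%) and the heat shock element in 1 (1.43%). The motifs were chosen with the results known and the shares were not tested.

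Small heat shock proteins, which hold unfolding proteins in a soluble state, mostly rose. Of 18 listed genes 15 were tested. HSP23.6-MITO and AT1G52560 had control means under 10 and could pass only through titled HS. Of the other 13, 12 rose, 11 by at least 2-fold, and 1 fell, with a median log2 change of 2.91. The HSP20-like gene AT1G59860 stood at 81.7, 65.6 and 49.4 in control and 1356, 1486 and 1562 titled HS, a log2 change of 4.49 (SE 0.0911; limma, Benjamini-Hochberg adjusted p 6.18e-28). AT1G54050, of the same family, rose from 254, 234 and 222 to 2038, 2208 and 2088, a log2 change of 3.15. The genes HSP17.6II (AT5G12020) and HSP17.6A (AT5G12030) rose by 3.55 and 3.48. The mitochondrial HSP23.6-MITO (AT4G25200) had 1, 3 and 0 reads in control and 47, 33 and 47 titled HS. The plastid HSP21 and the endoplasmic reticulum HSP22.0, both below the filter, had no reads in control and means of 8.08 ± 4.36 and 14.8 ± 9.76 normalized counts titled HS (SD, n = 3). AT4G21870 was the member that fell, from 203, 190.2 and 153 to 93.7, 137 and 112, a log2 change of -0.67 (SE 0.170; limma, Benjamini-Hochberg adjusted p 0.00309). Shared 50-base windows make up 61.5% of HSP17.4, so its rise of 1.78 may hold reads of a relative.

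Larger chaperones rose mostly by less than 2-fold. Of 19 HSP70, HSP90 and HSP100 genes, 15 rose, 5 of them by at least 2-fold, and 1 fell, with a median log2 change of 0.44. The disaggregase gene HSP101 (AT1G74310), needed for heat tolerance, went from 753, 759 and 832 to 4146, 4264 and 4384, a log2 change of 2.45 (SE 0.0458; limma, Benjamini-Hochberg adjusted p 6.93e-29). The cytosolic HSP70 (AT3G12580) went from 4431, 4539 and 4710.5 to 17647, 17322 and 18033, a log2 change of 1.95, and HSP90.1 (AT5G52640) from 2313, 2314 and 2353 to 8227, 8389 and 8297, a log2 change of 1.83. The constitutive HSC70-1 (AT5G02500) moved by 0.15, and the mitochondrial MTHSC70-1 was the one that fell, by a log2 change of -0.17. The plastid HSP90.5 and CLPB3 and the mitochondrial HSP90.6 did not pass. HSP90.4 passed by a narrow margin (limma, Benjamini-Hochberg adjusted p 0.0497) and lost its call in edgeR, in DESeq2 and without any of 5 single libraries.

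All tested co-chaperones but HOP1 and AT4G02450 rose, 10 of 12, 5 of them by at least 2-fold. BAG6 (AT2G46240), a BAG-domain cochaperone, stood at 81.7, 80.8 and 106 in control and 1429, 1282 and 1466 titled HS, a log2 change of 3.95 (SE 0.0695; limma, Benjamini-Hochberg adjusted p 1.6e-29). HOP3, which links HSP70 and HSP90, rose by 2.64, the DnaJ-like AT2G20560 by 2.51, the immunophilin ROF2 by 2.04 and the HSP70 cofactor FES1A by 1.73. Of 15 genes of the endoplasmic reticulum protein folding response 14 rose, but with a median of only 0.26; TIN1 and ERDJ3A, at 1.37 and 1.32, were those past 2-fold. BIP1 lost its call in edgeR and without any of 4 single libraries. Of 5 further heat genes tested 4 rose, among them DREB2A (AT5G05410), a factor shared by drought and heat, by 3.19, the coactivator MBF1C (AT3G24500) by 2.15, and GOLS1, a galactinol synthase, by 1.08. The DREB2A libraries stood at 48.0, 64.0 and 59.9 in control and 551, 503 and 529 titled HS. An antisense gene covers 25.9% of MBF1C's exons, and whether reads were counted by strand is not given in the sources used here.

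**Figure D3:**
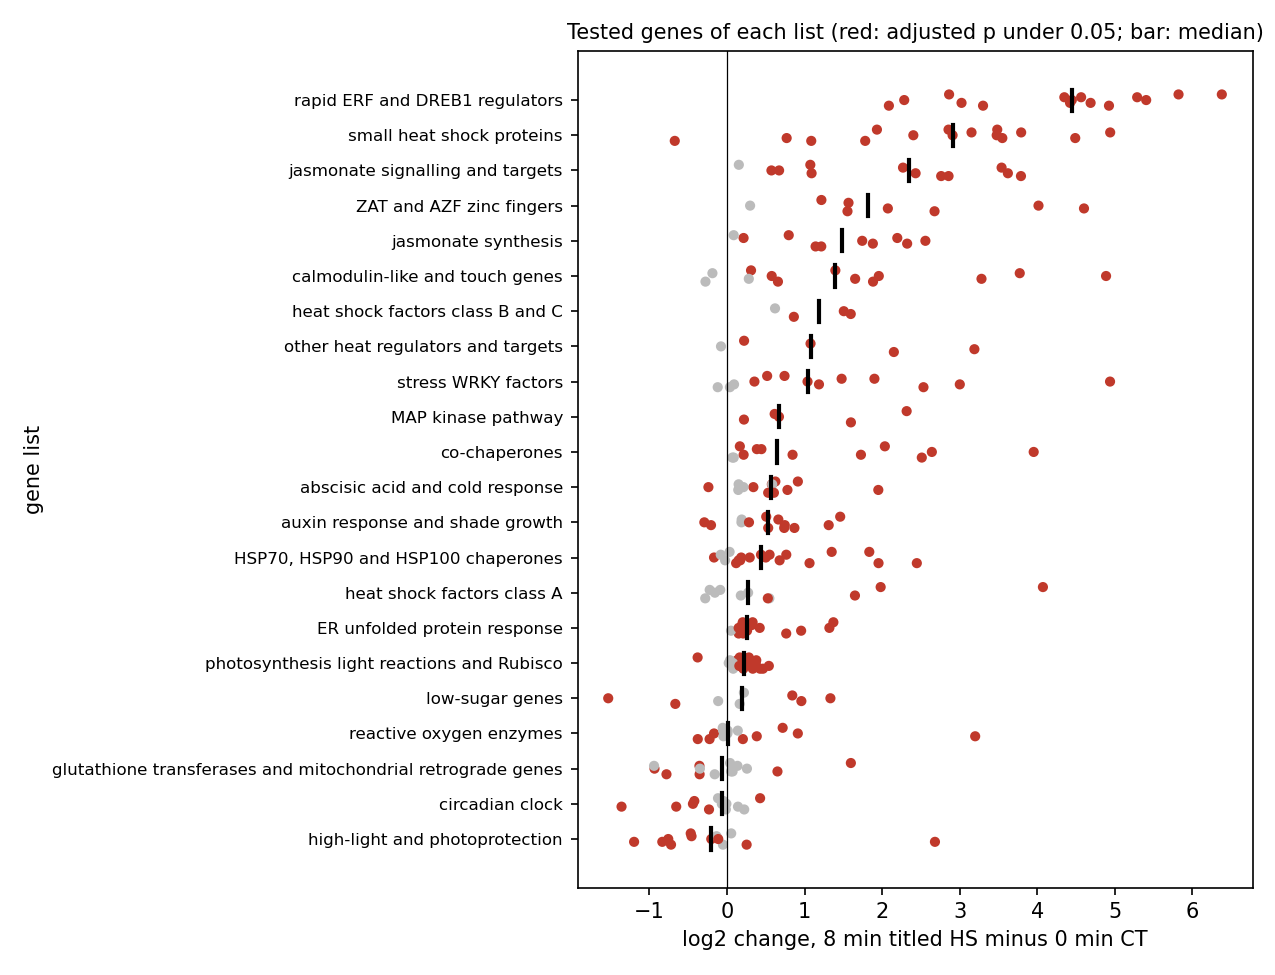
Log2 change between titled HS and control leaves (horizontal axis) of each tested gene in 22 lists (vertical axis), red where the adjusted p was under 0.05, with the list median as a bar. The median bars cover all tested members, with those named in the text as passing only through titled HS, and stand at 4.45 for the early ERF and DREB1 genes and 2.91 for the small heat shock proteins; the high-light and photoprotection list has the lowest at -0.20.

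Genes of jasmonate synthesis and signalling rose as groups. Of 10 synthesis genes 9 rose, 7 by at least 2-fold, with a median of 1.48. The lipoxygenase gene LOX4 (AT1G72520) stood at 267, 252 and 291 in control and 1542, 1573 and 1664 titled HS, a log2 change of 2.56 (SE 0.0782; limma, Benjamini-Hochberg adjusted p 5.65e-23). LOX3, OPCL1, AOC2 and OPR3, which act in the same pathway, rose by 2.32, 2.20, 1.88 and 1.74. JAR1, which makes the active jasmonoyl-isoleucine, did not pass, at a log2 change of 0.09. Of 12 tested signalling and target genes, JAZ8 and JAZ10 had control means under 10 and could pass only through titled HS. Of the other 10, 9 rose, 7 by at least 2-fold, with a median of 1.68. The repressor gene JAZ1 (AT1G19180), itself an early jasmonate target, went from 92.4, 87.5 and 104 to 1317, 1311 and 1329.5, a log2 change of 3.79. JAZ12 did not pass, at 0.15. MYC2 was listed at 0 in all 6 libraries, and 98.5% of its 50-base windows are shared with another locus.

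Other hormone lists moved less. In the abscisic acid and cold list 9 of 14 tested genes rose and 1 fell, where 15% of all genes tested rose and 9.25% fell. The list median was 0.57, with 1 rise of at least 2-fold. That gene was NCED3 (AT3G14440), the key enzyme of abscisic acid synthesis under stress, at 297, 353 and 346 in control and 1248, 1277 and 1324 titled HS, a log2 change of 1.95 (SE 0.0744; limma, Benjamini-Hochberg adjusted p 2.57e-20). COR15A, a target of CBF factors, rose by 0.91; the phosphatase gene HAB1 fell by 0.24 on the log2 scale. In the auxin and shade list 9 of 13 tested genes rose and 2 fell, against 15% and 9.25% of all genes tested. IAA6 and IAA29 were past 2-fold, at 1.46 and 1.31. PIF4, a growth factor that responds to warmth and shade, rose from a mean of 1801 ± 111 to 3019.6 ± 194 (SD, n = 3), a log2 change of 0.74. The low-sugar list split, with BZIP1, TPS11 and TPS8 higher and SEN1 and ASN1 lower.

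Genes of reactive oxygen metabolism did not move together. Of 14, APX2 had a control mean under 10 and could pass only through titled HS. Of the other 13, 4 rose, none by 2-fold, and 3 fell, where 15% of all genes tested rose and 9.25% fell. The median log2 change of the 13 was 0.01. RBOHD (AT5G47910), the oxidase that makes signalling superoxide, stood at 1908, 1887 and 1992 in control and 3599, 3743 and 3559 titled HS, a log2 change of 0.91 (SE 0.0629; limma, Benjamini-Hochberg adjusted p 1.69e-13). APX2 (AT3G09640), a cytosolic ascorbate peroxidase, had 9, 4 and 0 reads in control and 26, 26 and 22 titled HS. Control was low and uneven, and the log2 change of 3.20 depends on the pseudocount. The catalase gene CAT2 (AT4G35090) fell from 130081, 128944 and 130310.2 to 112644, 109954 and 110576, a log2 change of -0.22, while CAT3 rose by 0.38. In the list of glutathione transferases and mitochondrial retrograde genes 2 of 14 tested genes rose, a share near the 15% of all genes, and 4 fell, where 9.25% of all genes did; OM66 rose by 1.60 and AT2G21640, annotated as a marker of oxidative stress, fell by 0.94 on the log2 scale.

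Photoprotective genes tended the other way. Of 13 tested, 8 fell and 2 rose, where 9.25% of all genes tested fell and 15% rose. ELIP1 (AT3G22840), an early light-induced protein, stood at 727, 648 and 749 in control and 416, 435 and 434 titled HS, a log2 change of -0.72 (SE 0.0793; limma, Benjamini-Hochberg adjusted p 9.32e-09). ELIP2 (AT4G14690) went from 115, 139.7 and 113 to 54.3, 52.3 and 51.4, a log2 change of -1.20. The groups did not overlap for either gene. HY5 and HYH, factors of light signalling, fell by 0.83 and 0.76 on the log2 scale, and SIG5, a plastid sigma factor, by 0.46. The 2 that rose were BAP1, by 2.68, and NPQ1, by 0.25.

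The genes with the most reads changed by small steps. Of 23 photosynthesis and Rubisco genes 18 rose and 1 fell, none by 2-fold, with a median of 0.21. The 6 largest gains in normalized counts, not scaled to gene length, were all light-harvesting genes, LHCA4, LHCB3, LHCA1, LHCB1.2, LHCB1.3 and LHCA3. LHCA4 (AT3G47470), an antenna protein of photosystem I, stood at 141705, 134372 and 127715 in control and 167939, 181428 and 174896 titled HS, a log2 change of 0.38 (SE 0.0471; limma, Benjamini-Hochberg adjusted p 1.24e-07). LHCB1.3 passed only narrowly (limma, Benjamini-Hochberg adjusted p 0.0476) and lost its call in edgeR, in DESeq2, after rescaling and without any of 4 single libraries. The 6 largest losses were VTC2, CAT2, FBA1, RBCS1B, GBSS1 and LHY. VTC2 (AT4G26850), the controlling enzyme of ascorbate synthesis, went from 89503, 87566 and 86923 to 64342, 66959 and 65851, a log2 change of -0.42. The starch synthase gene GBSS1 (AT1G32900) went from 31660.3, 31808 and 31210.4 to 23754, 23867 and 23659.7, a log2 change of -0.41. FBA1, an aldolase, lost its call without any of 5 of the 6 libraries. Of 13 tested clock genes 5 fell and 1 rose, where 9.25% of all genes tested fell and 15% rose. BOA, a homeodomain-like gene, fell by at least 2-fold, from 19.5, 20.2 and 19.4 to 5.62, 10.8 and 5.71, but is among those whose call was lost in at least 1 alternative. LHY (AT1G01060), a morning repressor, went from 19544, 19484 and 20148 to 12695, 12486 and 12399.5, a log2 change of -0.65; CCA1, RVE8 and ELF3 fell too, with log2 changes of -0.23, -0.44 and -0.42, and PRR7 rose by 0.43.

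The 12 largest falls, ranked in the same way, were smaller than the rises. Below the level used for ranking, some genes with few reads fell further. The lowest was MYB111, a flavonol pathway regulator, with a mean of 39.6 normalized counts in control and 4.33 titled HS and a log2 change of -3.03; it was chosen after its values were seen. AT5G20790, an uncharacterized protein, stood at 203, 182 and 179.8 normalized counts in control and 48.7, 61.3 and 57.1 titled HS, a log2 change of -1.74 (SE 0.168; limma, Benjamini-Hochberg adjusted p 5.81e-10). SPX1 (AT5G20150), a phosphate-status sensor, went from 609, 635 and 582 to 209.8, 197 and 207, a log2 change of -1.57 (SE 0.112; limma, Benjamini-Hochberg adjusted p 3.96e-13). SRG3 (AT3G02040), a glycerophosphodiester phosphodiesterase also induced by phosphate shortage, went from 325, 377 and 323 to 126, 105 and 127, a log2 change of -1.51. For SPX1 and AT5G20790, every library titled HS lay well below every control library. The same held for SRG3, although 45.9% of its 50-base windows also occur at another locus and an antisense gene covers 44.7% of its exons. SEN1 (AT4G35770), a dark- and sugar-regulated gene, fell from 418, 444 and 444 to 142, 148 and 159.8, a log2 change of -1.53. The flavonol synthase gene FLS1 (AT5G08640) went from 283, 236 and 249 to 88.1, 97.4 and 116, a log2 change of -1.34, and CGA1 (AT4G26150), a GATA factor of chloroplast development, from 1178, 1065 and 1149 to 448, 465 and 451, a log2 change of -1.31. The rest were the Dof factor AT1G26790 (-1.49), the defensin-like AT3G05730 (-1.37), ELIP2, ABCI21 (-1.19), the sucrose exporter gene SWEET12 (-1.16) and AT1G79770 (-1.15).

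Genes that rose at least 2-fold were shorter and simpler in structure than genes tested as a whole. Their median exonic length was 1493 bases, against 1806 bases for all genes tested, and 42.4% had a single exon block (251 of 592 with an annotation), against 15.2%. Genes that fell at least 2-fold had a median of 1407.5 bases and 35.7% (25 of 70) had a single block. Their control levels were low, at a median of 79.2 normalized counts for the risers and 41.8 for those that fell, against 341 for all genes tested. These are descriptions and were not tested.

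Leaves titled HS were next set directly against leaves titled HL, which asks how the 2 single stresses differ at 8 min. In limma with Benjamini-Hochberg adjustment 2591 genes differed (14.2%), 1368 higher in titled HS (7.51%) and 1223 lower (6.71%). At least 2-fold differences were found in 212 genes (1.16%), 93 higher (0.51%) and 119 lower (0.653%) in titled HS. The genes tested had passed the filter on control and titled HS, so that genes expressed only in titled HL were left out. The 2591 depend on the fit: only the 2 groups gave 1617 and adding the 2 min groups gave 4068. Replicate 2 of titled HL stood apart from the other 2 libraries of its group, with a chi-square per gene of 6.60 and 6.04 against them and 1.38 between those, and without it the count was 1896.

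The direction split by gene list, where 7.51% of all genes tested were higher in titled HS and 6.71% lower. Chaperone genes were lower in titled HS, the group whose title names heat and whose tag names high light. Of 15 tested small heat shock proteins 14 were lower and none higher, with a median difference of -1.84. The HSP70, HSP90 and HSP100 list had 14 of 19 lower, and the co-chaperones 10 of 12. HSFA2 stood at 3987, 4211 and 4181 normalized counts titled HS and 9830.5, 9604 and 10245 titled HL, a log2 difference of -1.26 (SE 0.0422; limma, Benjamini-Hochberg adjusted p 1.08e-20). HSP101 stood at 4146, 4264 and 4384 and 14358, 13174 and 15069, a log2 difference of -1.73 (SE 0.0458; limma, Benjamini-Hochberg adjusted p 5.61e-23). HSP23.6-MITO stood at 88.1, 59.5 and 89.4 and 407, 524 and 384, a difference of -2.47 and one of the 8 largest in this direction.

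The early regulators went the other way. Of 15 tested ERF and DREB1 genes, including the 7 that passed only through titled HS, 12 were higher in titled HS and none lower, with a median difference of 1.03, and 7 of 13 WRKY and 6 of 13 calmodulin-like and touch genes were higher. Among genes ranked by the limits used against control (a mean of at least 100 in the higher group and no overlap), AT1G33760, which is not on these lists, had the largest excess in titled HS. Like AT4G27654, named below, AT1G33760 entered the genes tested only through titled HS, while genes low in control and high only in titled HL could not enter. The rank of AT1G33760 is to be read with this limit. AT1G33760 stood at 127, 166 and 169 titled HS and 31.6, 40.7 and 34.4 titled HL, a log2 difference of 2.08 (SE 0.262; limma, Benjamini-Hochberg adjusted p 4.39e-07). PHI-1, a phosphate-responsive gene, was at 199, 289 and 255 and 66.7, 53.0 and 63.5, a difference of 1.99, and the kelch-repeat gene AT1G80440 at 1860.4, 1926 and 1984 and 572, 623 and 489, a difference of 1.78. ORA47 was at 716, 691 and 743 titled HL, below every library titled HS, a difference of 1.68. Titled HL was still far above control for ORA47, whose control libraries stood at 23.1, 21.9 and 37.0. The same held for ERF6, at 184, 249 and 210 titled HL against 14.2, 8.42 and 7.05 in control. A higher level in titled HS was thus not a rise in that group alone for ORA47 and ERF6. The change from control to titled HL was not tested. The ubiquitin ligase gene PUB23 (1.71), AT4G27654 (1.63), the ethylene synthesis gene ACS11 (1.58) and the cell wall gene XTH25 (1.51) complete the 8 largest. The photoprotective ELIP1 was lower in titled HS, by a log2 difference of -0.77 (SE 0.0793; limma, Benjamini-Hochberg adjusted p 1e-08), its libraries titled HL at 663, 819 and 711.

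**Figure D4:**
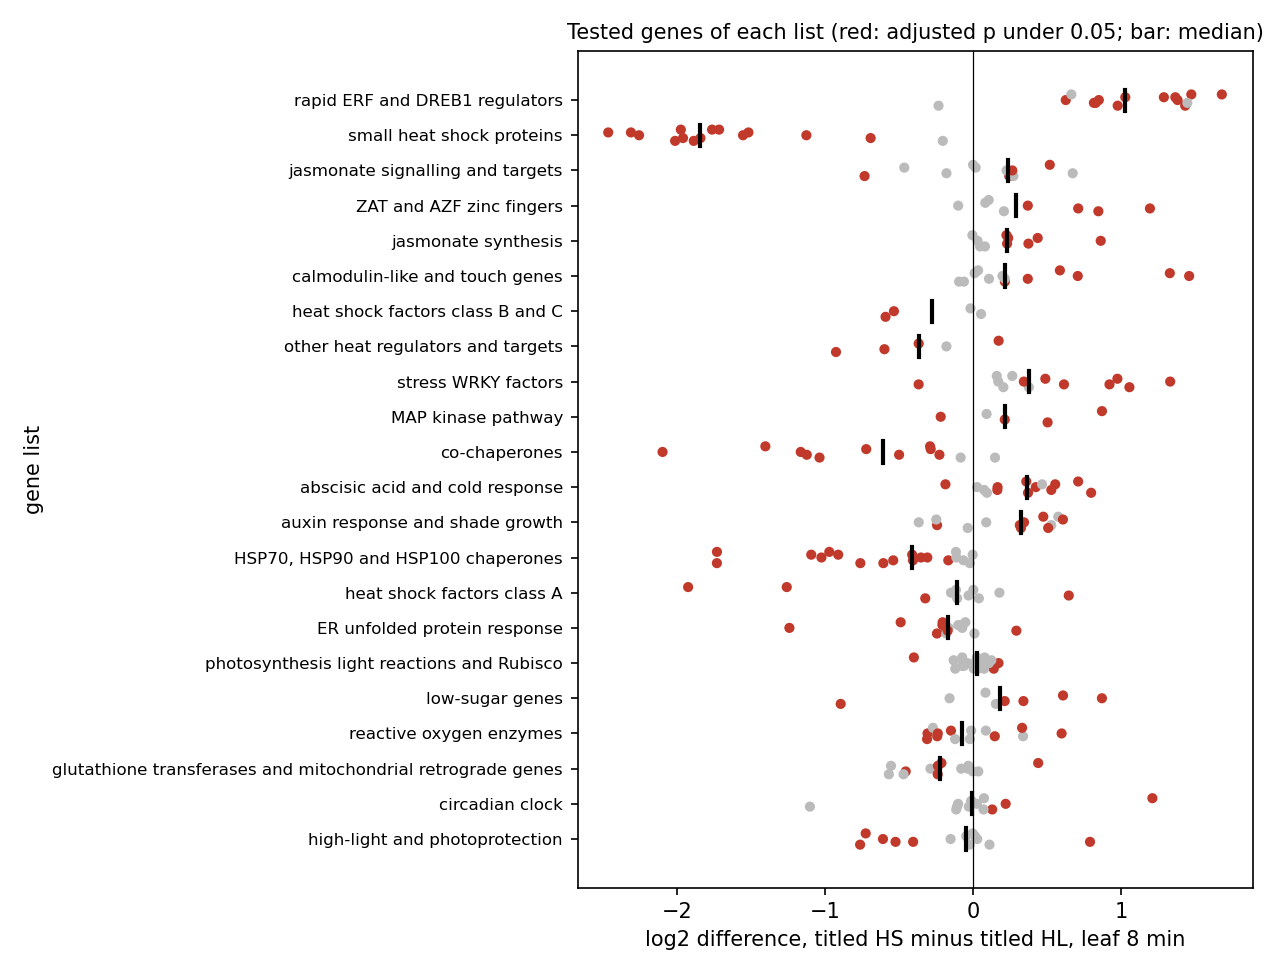
Log2 difference between leaves titled HS and leaves titled HL at 8 min (horizontal axis) of each tested gene in the same 22 lists, ordered as before, red where the adjusted p was under 0.05, with the list median as a bar. The small heat shock proteins lie to the left, at a median of -1.84, and the early ERF and DREB1 genes to the right, at 1.03.

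Of the 8 genes with the largest deficit in titled HS, 6 were abundant in stem. None of these 6 was called against control. CYP96A15, a hydroxylase of stem wax synthesis, stood at 37.3, 50.5 and 19.4 normalized counts in leaf control, 76.8, 81.2 and 97.0 titled HS and 770.4, 819 and 819 titled HL, against a mean of 16636 in stem control. The homeobox gene KNAT1, known for its role in the shoot meristem and stem, was at 33.7, 27.1 and 34.2 titled HS and 229.9, 232 and 241 titled HL, and at 8026 in stem control. For ADS4, AT5G51950, PER64 and BAS too, every library titled HL lay above every control library and every library titled HS, and the stem control means were 3030.2, 2342, 22059 and 3054. Across 82 genes that averaged 1000 or more normalized counts in stem control and at least 50-fold more than in leaf control, the median share of the stem level was 0.645% to 0.777% in leaf control libraries, 0.962% to 1.24% in those titled HS and 2.26% to 2.45% in those titled HL. The 12 xylem and fibre markers summed to 1021 to 1126 normalized counts in leaf control, 1244 to 1555 titled HS and 1638 to 1840 titled HL, and to 91757 to 95049 in stem control. NST1 was at 0 in leaf control. Of the 10 tested markers 4 were higher in titled HS than in control, none by 2-fold, where 15% of all genes tested were higher. The 5 flower markers summed to under 111 in every library of leaf control, titled HS and titled HL. The guard cell markers held 1 call against control, a lower MYB60 (-0.43), and the phloem markers 1, a higher SUC2 (0.22). The part of stem RNA in the counts was not tested. Of the 593 genes that rose at least 2-fold, 47 were at least 10-fold higher in stem control than in leaf control; the 12 largest rises had stem control means of 0 to 289, each below the lowest leaf library titled HS of the same gene. The chloroplast locus ATCG00350 was also lower in titled HS than in titled HL, at 137, 186 and 175 and 1025, 856 and 995, while control was at 165, 143 and 178. Chloroplast reads made up 0.0360% to 0.0436% of the libraries titled HS, 0.0415% to 0.0423% of control and 0.0763% to 0.0836% of those titled HL.

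The change from control in the untreated stem of plants titled HS was compared with that in leaf titled HS, by a limma interaction term over 33 libraries. Both tissues were grouped by title. As the leaves titled HS carry a high-light tag, leaf and stem titled HS may not come from plants given the same stress. The change differed in 3950 genes (21.7%), with the leaf change above the stem change in 2466 (13.5%) and below it in 1484 (8.14%). Of these, 716 (3.93%) differed by at least 2-fold, 614 above (3.37%) and 102 below (0.56%). The xylem and fibre markers summed to 91757 to 95049 in stem control and 60339 to 61224 in stem titled HS. Flower marker sums were 94.6 to 103 and 22.5 to 42.6, while phloem sums overlapped. Of 10 tested xylem and fibre markers, 8 had the leaf change above the stem change, 6 by at least 2-fold. The part of tissue composition in these counts was not tested. The genes tested were those that passed the filter on leaf control and leaf titled HS, so that genes expressed only in stem were left out. Of the 18220, 227 had leaf control means under 10 and entered only by being higher in leaf titled HS. How far this shaped the counts above and below was not tested. The leaf change was above the stem change for 13 of 15 tested small heat shock proteins and for 12 of 15 ERF and DREB1 genes, counts that include the members which passed only through leaf titled HS. Genes were ranked under the same limits on overlap and on leaf level, and CSLA01, of a glucomannan synthase family, came first, with a difference of 5.73 (SE 0.369; limma, Benjamini-Hochberg adjusted p 3.54e-15). It rose in leaf from 42.6, 52.2 and 56.4 to 362, 326 and 476 and went in stem from 23.5, 18.2 and 18.6 to 1.52, 2.98 and 1.61, where the last values are near 0 and depend on the pseudocount. ERF6 differed by 4.56 (SE 0.287; limma, Benjamini-Hochberg adjusted p 1.78e-15), with stem libraries at 10.3, 13.2 and 15.2 in control and 44.1, 25.4 and 29.0 under the HS title. In stem too every library titled HS lay above every control library, by a smaller step. AT1G59860 stood at 32.3, 31.4 and 28.7 in stem control and 39.5, 22.4 and 37.0 in stem titled HS, so that the groups overlapped there, and differed by 4.43. AT1G53540, a further HSP20-like gene, rose in leaf from 14.2, 13.5 and 15.9 to 227, 204 and 211 and was at 5.87, 1.65 and 0 in stem control and 0 in all 3 stem libraries titled HS, and differed by 5.19. Its stem change of -1.40, from a few reads to 0, depends on the pseudocount.

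**Figure D5:**
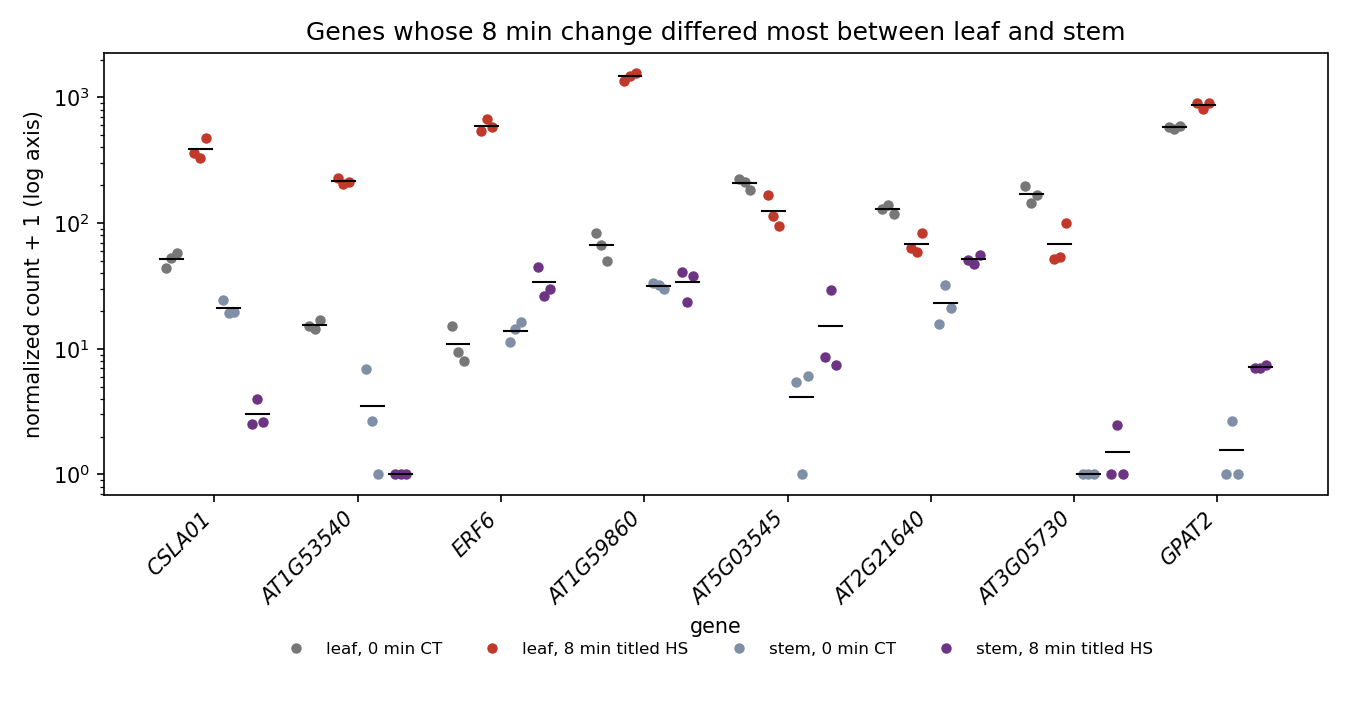
Normalized counts plus 1 (log axis) of the 8 genes ranked first by the difference of change between leaf and stem, among called genes with a mean of at least 100 in a leaf group and no overlap of the leaf groups, 3 libraries per group with the group mean as a bar. CSLA01, AT1G53540, ERF6 and AT1G59860 rise in leaf but fall, stay or rise less in stem; AT5G03545, AT2G21640 and AT3G05730 fall in leaf, and GPAT2 rises more in stem on the log2 scale.

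In the opposite direction AT5G03545, annotated as expressed in response to phosphate starvation, differed by -2.71 (SE 0.672; limma, Benjamini-Hochberg adjusted p 0.00265). It fell in leaf from 222, 212 and 183 to 165, 114 and 93.2 and stood in stem at 4.40, 0 and 5.07 and 7.60, 28.4 and 6.44. Most of this difference is its stem change of 1.95, which starts from a few reads and depends on the pseudocount. AT2G21640 fell in leaf from 128, 138 and 118 to 61.8, 57.7 and 81.8 and stood in stem at 14.7, 31.4 and 20.3 and 50.2, 46.3 and 54.7, a difference of -2.15 (SE 0.303; limma, Benjamini-Hochberg adjusted p 9.26e-07). AT3G05730 and GPAT2 followed at -1.81 and -1.78. AT3G05730 was listed at 0 in all stem control libraries and GPAT2 stood at 0, 1.65 and 0 there, so that these values depend on the pseudocount; both lost the call in edgeR and DESeq2.

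At 2 min title and treatment tag agree, while the 8 min leaves titled HS carry a high-light tag, so that leaves titled HS at 2 and 8 min may not have had the same stress. Both single stresses at 2 min are therefore given, in libraries of 31725824 to 43420418 reads, deeper than those at 0 and 8 min. Values are set side by side without a test. HSFA2 had a mean of 243 ± 4.62 normalized counts in 2 min HS and 883 ± 47.7 in 2 min HL (SD, n = 3), against 244 ± 6.81 in control and 4126 ± 122 in 8 min titled HS. STZ was at 210.0 ± 6.73 and 453 ± 22.4 at 2 min, against 189 ± 15.2 in control and 4612 ± 208 at 8 min. ORA47 was at 41.6 ± 5.89 and 92.3 ± 19.2 at 2 min, against 27.3 ± 8.41 and 2297 ± 39.3. For these 3 genes 2 min HL had the higher mean of the 2 min groups, far below 8 min. SPX1 was at 600.0 ± 12.9 in 2 min HS and 267 ± 30.1 in 2 min HL, against 609 ± 26.4 in control and 205 ± 7.03 in 8 min titled HS. SRG3 was at 393 ± 41.9 and 119 ± 12.4 at 2 min, against 342 ± 30.7 and 119 ± 12.7. For SPX1 and SRG3 the mean of 8 min titled HS was nearer to 2 min HL than to 2 min HS. The same held for 8 min titled HL, at 311 ± 59.9 for SPX1 and 163 ± 41.2 for SRG3 (SD, n = 3). The pattern was thus not particular to titled HS. ELIP1 was at 427 ± 5.08 and 548 ± 24.2 at 2 min and 428 ± 10.6 at 8 min, each below its control mean of 708 ± 53.2 and here the mean of 8 min titled HS was nearer to 2 min HS. Among the other leaves at 8 min, the leaf given heat while a second leaf received high light had HSFA2 at 21073 ± 657, the leaf given high light in the same plants 21278 ± 899, and leaves given both stresses 32218 ± 346, all above both single-stress groups. STZ in these groups was at 6227 ± 87.0, 4872 ± 103 and 3256 ± 215.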

How the data were processed

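RNA was sequenced from leaves and stems with TruSeqHT libraries, per the labels' protocols. The submitters' processing notes name FastQC 0.11.7, STAR 2.4.0.1, DESeq2 1.20.0 and the build TAIR10; the annotation and the strand setting of the counting are not given in the sources used here. The deposited values are a signal, the authors' normalized counts. All values were whole multiples of the value of 1 read (100%, largest deviation 1.63e-09 reads), so whole reads were recovered. In the 6 libraries 3 reads were worth 5.05 to 5.71 normalized counts, a floor that covers counting error only. Of the 32833 identifiers 32548 matched RefSeq's TAIR10.1, which gave names and start regions; the other 285 were organellar.

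A pseudocount of 1 was added, log2 was taken and genes were tested two-sided with limma 3.58.1 (R 4.3.3; eBayes with a mean trend), with Benjamini-Hochberg adjustment over all genes tested. The 18 leaf libraries of 0 and 8 min entered 1 fit, and 33 libraries of both tissues the leaf and stem comparison. In simulated data of 17962 genes, 200 were changed, in equal numbers up and down, all with control means well above the filter minimum. Of those set to log2 changes of -1 and 1, 94% and 96% were recovered, and 100% of those set to -2 and 2, with 6 false calls. Changes in genes near the minimum, a skew toward rises and a library that stands apart were not simulated. Alternatives were rescaling, no filter, a pseudocount of 0.1, replicate numbers as a block, a fit of only the groups compared, the 2 min groups added, edgeR 4.0.16 and DESeq2 1.42.0 on the recovered reads, and each replicate left out. The text names list members, the 12 largest rises and falls among called genes with non-overlapping groups and a mean of at least 100 in the higher group, the 6 largest gains and losses in counts, and the 8 or 4 largest differences from titled HL and from stem. Members and lists were chosen with earlier results of these data known.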

Additional observations from a re-analysis of the deposited data

Results flagged for a closer look

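The 8 min change differed between the treated leaf and the untreated stem, both titled HS, in 3950 genes by the limma interaction term. The leaves carry a high-light tag, so that the tissues may not come from plants given the same stress. The same term picked out CSLA01, with a difference of 5.73, AT1G53540 with 5.19, ERF6 with 4.56 and AT1G59860 with 4.43, for which the leaf change was the higher. It also picked out AT5G03545 with -2.71, AT2G21640 with -2.15, AT3G05730 with -1.81 and GPAT2 with -1.78, for which the stem change was the higher. The 8 rank first only among genes past the threshold with a mean of at least 100 in a leaf group and no overlap of the leaf groups; of the genes with lower leaf means, some differed by more than most of these, though none by more than CSLA01. For AT1G53540, AT5G03545, AT3G05730 and GPAT2, and for CSLA01 in stem titled HS, stem values near 0 make the difference depend on the pseudocount. The groups hold 3 libraries each, too few for the test of a single outlying sample.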

How the results depend on the processing

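The 4419 genes that differed between titled HS and control ranged from 3738 (DESeq2) to 6031 (2 min groups added) over the alternatives, and from 3579 to 3759 with 1 library left out. The 663 with at least 2-fold changes ranged from 592 (DESeq2) to 794 (no filter on low values), and from 615 to 651 with 1 library left out; of the 663, between 594 and 663 passed in the same direction under each alternative. Values that moved by over 1.5 times were few. Adding the 2 min groups gave 2570 lower genes in place of 1686, and no filter on low values gave 110 genes lower by at least 2-fold in place of 70. Between titled HS and titled HL, only the groups compared gave 1617 genes (859 higher, 758 lower) and the 2 min groups added gave 4068 (2166 higher, 1902 lower), in place of 2591; the cause was not tested. With 1 library left out this count ranged from 1885 to 2730. The count of genes that differed between leaf and stem ranged from 3406 to 3666 with 1 library left out, and was 5472 with the 2 min groups added and 3625 in DESeq2.

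Samples of the 2 groups share only a replicate number: deviations of same-numbered libraries correlated at -0.0069, 0.0221 and 0.0038 over 18220 genes, and not every library correlated best with its own number. With the replicate number as a block the counts were 4444, 664, 2633 and 3957. 2 alternatives were chosen after seeing the data. Without the titled HL library that stands apart, the counts for control and for stem were 5007 and 4253, and 674 with at least 2-fold changes. Without genes at least 10-fold higher in stem control, the 4 counts were 4300, 616, 2506 and 3791. No named gene reversed under any alternative; of 233 named genes called against control, 206 kept the call in all, as did 128 of 164 called against titled HL and 6 of 8 called between leaf and stem.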

Other observations

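The genes in this part were chosen after their values were seen, and their counts are descriptions. A set of genes known to be induced by phosphate shortage was looked up, with SPX1, SRG3 and AT5G03545 among them. Of 14 such genes 11 were tested, and 5 were lower and 1 higher in titled HS than in control. Of all genes tested 9.25% were lower and 15% higher. The median log2 change was -0.33, against 0.01 over all genes tested. SPX1, SRG3 and AT5G03545 were known to be lower before the set was chosen and are among the 5. The count and the median thus rest in part on them. The other lower genes were PAP17 and PHO1;H1. The acid phosphatase gene PAP17 stood at 1258, 1368 and 1241 normalized counts in control and 807, 817 and 846 titled HS, a log2 change of -0.64 (SE 0.0603; limma, Benjamini-Hochberg adjusted p 2.81e-10). PHO1;H1 was lower by a log2 change of -0.33 and the phosphatase gene PS2 higher by 0.65. The lipid remodelling genes SQD1, SQD2, MGD2 and MGDC did not pass the threshold, with log2 changes of -0.13, -0.07, 0.02 and -0.38. SPX3 and IPS1 had no reads in the 6 libraries.

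Some single enzymes of hormone turnover rose. CYP707A3, which breaks down abscisic acid, went from 33.8, 70.7 and 44.1 to 1103, 1165 and 1002, a log2 change of 4.50 (SE 0.135; limma, Benjamini-Hochberg adjusted p 3.4e-23); CYP707A1 rose by 0.66, and CYP707A2 and CYP707A4 did not pass. ACS6, which makes the ethylene precursor, went from 345, 328 and 324 to 5403, 5606 and 5486, a log2 change of 4.04 (SE 0.0504; limma, Benjamini-Hochberg adjusted p 1.97e-33), and ACS11 rose by 3.22, while ACS2 and ACS8 did not pass. PUB22, PUB23 and PUB24, related ubiquitin ligases, rose by 2.05, 3.08 and 0.59. Among the 172 RefSeq symbol stems with at least 8 tested genes, the shares that rose at least 2-fold were ranked. They were highest for JAZ (7 of 12), HSP (11 of 23) and ERF (9 of 19), where 3.25% of all genes did. The ranking uses the same values, and part of these genes are on the lists above. The counts include JAZ8, JAZ10, HSP23.6-MITO, ERF6 and ERF13, which could pass the filter only through titled HS.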
